A study of Spirodela polyrhiza with 12 samples.

Results

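The genes described here fell in transcript level at both steps of a temperature series in leaves of Spirodela polyrhiza, the giant duckweed. They number 122 of the 18099 genes in the deposited table, or 0.674%. RNA was sequenced from leaf samples in 3 groups of 4 libraries each, labelled indoor temperature (the control), Middle temperature and High temperature. No genotype, clone or agent other than temperature is labelled, and neither the degrees nor how long the plants were exposed is stated in the labels. No label says whether a group's 4 libraries stem from separate cultures, so every p-value here is set against a spread that could be technical.

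The 122 genes were chosen by their measured values in all 12 libraries. Each FPKM (a fragment count per transcript length and library size) was divided by the library's median FPKM over the 12316 genes at an FPKM of at least 1 in every library, and multiplied by 15. This scaled FPKM is called the level below. After adding 0.5, the group mean had to fall at least 1.5-fold from indoor to middle temperature and again at least 1.5-fold from middle to high temperature. The highest group mean had to reach 5, and the 100 genes of highest indoor FPKM were left out. Every fold below is a ratio of these means with 0.5 added. Because the rule used all 3 comparisons, the levels, folds and counts of calls describe the chosen genes and are no independent evidence that they fall.

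Spirodela polyrhiza is a floating plant whose fronds, which combine leaf and stem, multiply mainly by budding. In plants, warming beyond the usual range is known to raise transcripts of heat shock proteins, which keep other proteins folded, and to lower many transcripts used in growth and metabolism. A transcript's level reflects both how fast it is made and how fast it is broken down. The deposited table gives genes by identifier and does not pair identifiers with names, so no function is assigned to any gene here, the aquaporins of the series title and markers of leaf tissue included. In bulk RNA, fewer cells of a type and less RNA per cell cannot be told apart.

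At indoor temperature the 122 genes spanned a wide range of expression. Their mean indoor level ran from 4.52 to 406 with a median of 15.1, against a median of 10.7 over the 15209 genes tested. The genes tested did not have to reach the rule's minimum of 5, so these medians are of unlike sets. Among genes held to that minimum, the median indoor level was 28.4 in those that fell at least 1.5-fold at the first step only. It was 7.27 in those that did so at the second step only. The median member stood at 7.80 at middle and at 4.09 at high temperature, whereas the median over all genes tested was 10.9 and 10.5. An indoor level under 10 was found for 38 members, and 9 members reached 100 or more. At high temperature the mean level was under 1 for 17 members.

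Which step was the larger depended on the scaling. On the level, the first step was larger than the second in 75 members and smaller in 47, whereas on deposited FPKM it was larger in 15 and smaller in 107. On the level, the median fall from indoor to middle temperature was 1.94-fold, with quartiles of 1.66 and 2.54 and a largest fall of 8.20-fold. From middle to high temperature it was 1.87-fold, with quartiles of 1.62 and 2.10 and a largest fall of 5.47-fold. On deposited FPKM the members' median fall was 1.84-fold at the first step and 3.02-fold at the second, beside 0.926-fold and 1.69-fold over all genes tested, where a value under 1 is a rise. On the level again, falls of at least 2-fold were found for 56 members at the first step, 42 at the second and 23 at both. Over both steps together the median fall was 3.68-fold, with a range from 2.39-fold to 32.9-fold. It reached 4-fold in 50 members, 8-fold in 9 and 10-fold in 6, and stayed under 3-fold in 24. With 0.5 added, the largest total fall stood apart from the next, which was 13.0-fold. The added 0.5 shrinks falls that end near 0. A member listed at 10.9-fold went from a mean level of 5.84 at indoor to 0.0807 at high temperature. Another, at 10.4-fold, went from 5.46 to 0.0746. The member with the largest fold went from 42.4 to 0.803.

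**Figure D1:**
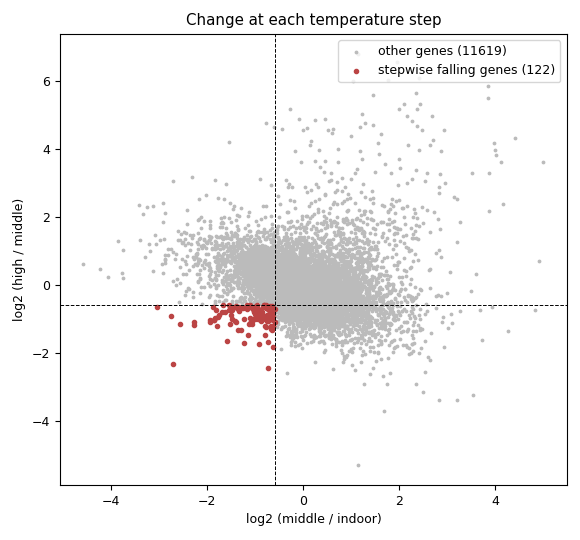
Log2 of the middle over indoor ratio (x axis) against log2 of the high over middle ratio (y axis) for genes that reach the minimum level outside the 100 most abundant, with dashed lines at a 1.5-fold fall. The 122 chosen genes (red) fill the lower left corner, where most points lie close to the dashed lines and few reach a 4-fold fall at either step.

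With 0.5 added, the total fall differed little with the starting level. Its median was 3.67-fold in the 38 members with an indoor level under 10, 3.51-fold in the 48 members from 10 to 30, 3.85-fold in the 27 members from 30 to 100, and 4.63-fold in the 9 members at 100 or more. The added 0.5 shrinks a fall more where levels are low. A member listed at 5.54-fold, for example, went from a mean level of 4.66 at indoor to 0.432 at high temperature. The part of the added 0.5 in this relation was not tested, and no test of the relation itself was made.

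The members closest to the thresholds differed little from genes left out. At the first step the 3 members just inside had falls of 1.5063-fold, 1.5084-fold and 1.5341-fold, and the 3 genes just outside, which met the other criteria, had 1.4953-fold, 1.4914-fold and 1.4885-fold. At the second step the nearest values were 1.5068-fold, 1.5076-fold and 1.5135-fold inside and 1.4988-fold, 1.4977-fold and 1.4945-fold outside. For the highest group mean the nearest values were 5.016, 5.057 and 5.099 inside and 4.892, 4.874 and 4.837 outside. Another 2 genes met every criterion except that they were among the 100 most abundant. With 0.5 added, the mean level of 1 of them was 1023, 264 and 141 at indoor, middle and high temperature, and that of the other was 2391, 994 and 628.

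The course of the whole set was visible in each library. The median level over the 122 genes ran from 12.3 to 15.8 in the indoor libraries, from 6.04 to 8.23 in the middle libraries and from 3.03 to 3.83 in the high libraries, so the groups did not overlap. As a share of all deposited FPKM, the 122 genes together held 0.722% ± 0.0604 in the indoor group, 0.349% ± 0.0628 in the middle group and 0.102% ± 0.0275 in the high group (SD, n = 4). The summed level of the members was 4212 ± 413, 1853 ± 338 and 946 ± 217 in the same order. The rule fixes the order of these groups, and no test is given for it.

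**Figure D2:**
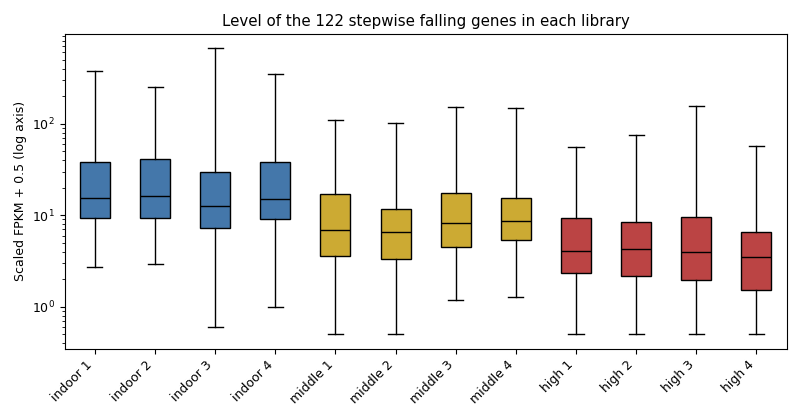
Level (scaled FPKM + 0.5, log axis) of the 122 genes in each of the 12 libraries; boxes span the quartiles, the line is the median and the whiskers reach the lowest and highest gene. The boxes step down from indoor (blue) through middle (yellow) to high temperature (red), with medians of 12.3 to 15.8, 6.04 to 8.23 and 3.03 to 3.83 before 0.5 is added.

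Within a group the libraries were not equally low. Relative to each gene's indoor mean, the median member stood at 0.440, 0.409, 0.523 and 0.530 in middle replicates 1 to 4. In high replicates 1 to 4 it stood at 0.262, 0.287, 0.241 and 0.189. Middle replicate 2 and high replicate 4 were thus the lowest libraries of their groups. High replicate 4 also had the lowest TMM factor (the library scaling factor of edgeR) of all 12 libraries, 0.630, whereas middle replicate 2 had the highest, 1.387. Over all genes tested, these libraries differed from the rest of their group by a median log2 of -0.01 in middle replicate 2 and -0.00 in high replicate 4, against -0.41 and -0.43 over the members. The part of library composition in these differences was not tested.

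The gene with the largest total fall was Spipo28G0015100.v2, shown because its ratio of high to indoor level was the lowest among members whose libraries did not overlap between any groups. Its level was 43.2, 40.4, 32.3 and 53.6 in the indoor libraries, 3.91, 5.34, 9.06 and 5.83 in the middle libraries, and 0.914, 1.35, 0.324 and 0.629 in the high libraries. All of the middle libraries were below all of the indoor libraries, and all of the high libraries were lower still. The fall was 6.56-fold at the first step and 5.01-fold at the second, 32.9-fold in all. The log2 fold changes in edgeR's quasi-likelihood fit were -2.83 ± 0.32 (SE; Benjamini-Hochberg adjusted p = 3.95e-05) at the first step and -2.85 ± 0.35 (adjusted p = 8.47e-05) at the second. From indoor to high temperature the fit gave -5.68 ± 0.38 (SE). It gave larger falls, -5.93 ± 0.79 and -5.79 ± 0.73, in other members without overlap, whose mean high levels were 0.0807 and 0.0746. Which gene fell most therefore depended on the added 0.5.

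Spipo5G0023500.v2 had the next lowest ratio under the same condition. Its level was 12.4, 15.7, 7.37 and 25.1 at indoor, 1.77, 1.30, 2.24 and 2.02 at middle, and 0.648, 1.12, 0.145 and 0.983 at high temperature. The indoor libraries were scattered but stood apart from all others, while the middle and high libraries were separated by a narrow gap. The fall was 6.70-fold at the first step and 1.91-fold at the second. The same fit gave -3.05 ± 0.45 (SE; Benjamini-Hochberg adjusted p = 2.71e-04) for the log2 fold change of the first step and -1.30 ± 0.46 (adjusted p = 0.0454) for that of the second. The call at the second step was lost when any of middle replicates 1 to 4, high replicates 1, 3 or 4, or indoor replicates 1 or 2 was left out, and edgeR's adjusted p (Benjamini-Hochberg) then lay between 0.0502 and 0.0967.

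Spipo3G0053400.v2 had the highest indoor level among the members without overlap. Its level was 243, 254, 211 and 154 in the indoor libraries, 99.0, 101, 113 and 119 in the middle libraries and 55.7, 74.8, 37.1 and 47.8 in the high libraries. The middle libraries lay close together, and the lowest indoor library was still above the highest of them. The steps were of nearly equal size, 1.99-fold each. On the log2 scale edgeR gave -1.02 ± 0.21 (SE; Benjamini-Hochberg adjusted p = 0.00240) and then -0.99 ± 0.21 (adjusted p = 0.00399).

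Spipo0G0145400.v2 was the next most abundant. Its level was 90.0, 91.9, 121 and 98.9 at indoor, 44.0, 47.9, 69.7 and 45.2 at middle and 30.1, 34.9, 20.3 and 29.1 at high temperature. Middle replicate 3 was above the other middle libraries but below every indoor library. The falls were 1.93-fold and 1.79-fold. The fitted log2 fold changes in edgeR were -0.98 ± 0.19 (SE; Benjamini-Hochberg adjusted p = 0.00180) and -0.84 ± 0.20 (adjusted p = 0.00648).

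**Figure D3:**
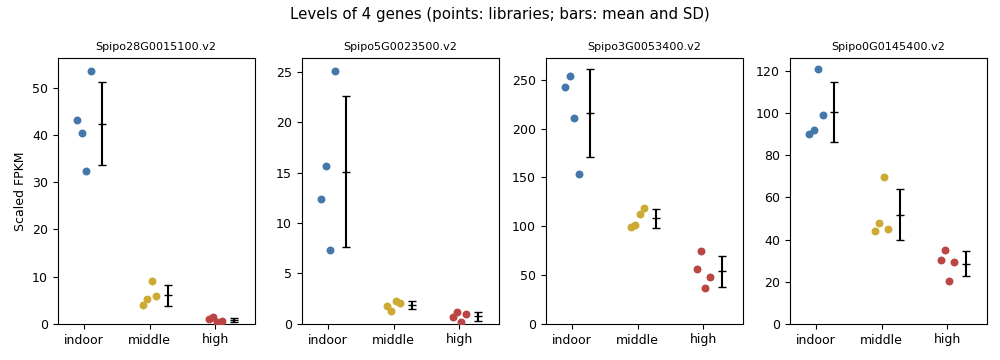
Level (scaled FPKM, linear axes from 0) of Spipo28G0015100.v2, Spipo5G0023500.v2, Spipo3G0053400.v2 and Spipo0G0145400.v2 in each library; points are libraries and bars are the mean and SD (n = 4). In each gene the indoor, middle and high libraries occupy separate ranges, from 32.3 to 53.6 down to 0.324 to 1.35 in Spipo28G0015100.v2.

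The 4 genes above were required to have no overlap, which most members did not meet. The member of highest indoor level had 376, 237, 667 and 345 at indoor, 109, 42.2, 146 and 148 at middle, and 12.9, 31.3, 154 and 19.8 at high temperature. Its high replicate 3 was above every middle library, although its group means fell 3.63-fold and 2.04-fold. Another member had an indoor level of 6.52, 51.2, 2.01 and 6.16, so that a single library held 77.7% of the indoor sum. Its middle libraries ran from 2.25 to 19.1 and its high libraries from 2.52 to 8.09, and these ranges overlapped those at indoor temperature. The highest indoor library held more than 50% of the indoor sum in 9 members. By contrast, the member with the smallest total fall, 2.39-fold, had 11.4, 14.2, 18.7 and 15.0 at indoor, 8.74, 9.21, 9.53 and 9.70 at middle and 5.39, 6.15, 6.35 and 5.78 at high temperature, with no overlap. These 3 members were picked after their values were seen, to show the range of spread within the set.

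**Figure D4:**
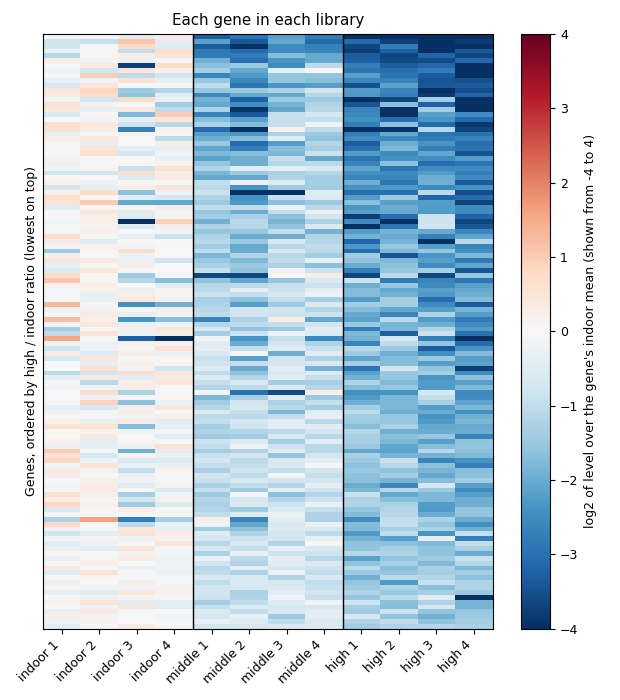
Each row is 1 of the 122 genes, ordered by the ratio of high to indoor level, and each column is a library; colour is log2 of the level over the gene's indoor mean, shown from -4 to 4. Blue deepens from middle to high temperature in most rows, and dark or red cells within the indoor block mark genes whose indoor libraries disagreed.

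The libraries of a group often disagreed in the members. The median coefficient of variation (SD over mean) was 31.1% in the indoor, 32.8% in the middle and 45.5% in the high group, against 21.0%, 18.5% and 23.7% over all genes tested. It exceeded 50% in 27 members in the indoor, 20 in the middle and 51 in the high group. In the 2094 genes that fell at least 1.5-fold at the first step only it was 22.8%, 19.9% and 26.7%. In the 1689 genes that fell at the second step only it was 21.2%, 18.5% and 26.1%. The median level at high temperature was 19.2 and 5.39 in these sets, against 4.09 in the members. The members were chosen on means of these same libraries, and the part of that choice in their spread was not tested. No test of the difference in spread was made.

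The groups overlapped in many members at a single step. All middle libraries were below all indoor libraries in 63 members, a separation found in 17.2% of all genes tested. All high libraries were below all middle libraries in 38 members, against 15.2% of all genes, and below all indoor libraries in 102, against 14.0%. Separation at both steps was found in 21 of the 122 members and in 0.658% of all genes tested. All of these values entered the rule, so the counts are a description.

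In edgeR's quasi-likelihood test over 15209 genes, where a gene was called at a Benjamini-Hochberg adjusted p under 0.05, all 122 members passed the filter on low values. At middle against indoor temperature 71 members were called lower, beside 17.7% of all genes tested. At high against middle temperature 56 members were called lower, beside 14.5%. With library totals alone in edgeR, most genes were called lower at this step, 108 members beside 62.9% of all genes. The same held on FPKM without further scaling: 108 beside 64.4% with limma on log2(FPKM + 1), and 110 beside 64.1% with limma and a pseudocount of 0.1. Other scalings in place of TMM stayed nearer to the reported count. In edgeR, library medians gave 59 members and the size factors of DESeq2 gave 56, while DESeq2 itself gave 72. At high against indoor temperature 112 members were called lower, beside 15.8%. The median log2 fold change of the members was -1.04, -0.98 and -2.06 in turn, against -0.02, 0.0033 and -0.04 over all genes tested. These comparisons share libraries with each other and with the rule, so nothing is read from the counts beyond the size of the spread.

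Calls at both steps were made for 46 members, beside 0.644% of all genes tested. A call at the first step alone was made for 25 members and at the second step alone for 10. Neither step was called in 41 members, of which 31 were called lower between high and indoor temperature and 10 were called in no comparison. The 46 members make up 37.7% of the set and 46.9% of the 98 genes called lower at both steps. Of the 52 called genes outside the set, 44 fell less than 1.5-fold at a step and 11 stayed below the minimum level, criteria that can both apply to a gene.

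The genes were also looked up in libraries that had no part in choosing them. The rule was repeated 12 times without a different library, and the genes it chose, 113 to 156 of them, were then read in the library left out. The group means at the other end of each ratio were still picked by the rule, so a library that did not differ from its neighbours would also tend to lie in the order the rule asks for, most of all a middle library, whose neighbours were chosen apart. When an indoor library was left out, the median fall from that library to the mean of the middle libraries was 1.81-fold, 1.97-fold, 1.54-fold and 1.70-fold for replicates 1 to 4. For high replicates 1 to 4, the median fall from the mean of the middle libraries to the library left out was 1.70-fold, 1.44-fold, 1.44-fold and 2.15-fold. For middle replicates 1 to 4 the median first step was 2.38-fold, 2.80-fold, 2.00-fold and 1.89-fold and the median second step 1.61-fold, 1.34-fold, 1.92-fold and 2.02-fold. The library left out lay on the side of its neighbouring group means that the rule asks for in 67.9% to 97.3% of the genes, with the lowest share in high replicate 3 and the highest in high replicate 4. The full 1.5-fold fall, at both steps for a middle library, was met in 31.5% to 77.0% of the genes, lowest in middle replicate 2. No value for unchanged genes was set beside these shares, and the repeats share most of their libraries, so the readings are a description and support nothing.

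Membership itself depended on single libraries. The repeats kept 96 to 114 of the 122 members each, and 47 members were kept in all 12. With group medians in place of means, 153 genes met the rule, 96 of them members. With FPKM as deposited, without scaling to the library median, 593 genes met it, of which 102 were members. The median FPKM used for scaling was 22.2 ± 0.538, 24.1 ± 1.62 and 13.8 ± 1.19 in the indoor, middle and high groups (SD, n = 4), so scaling raised the levels at high temperature relative to the others. On deposited FPKM the members' median fall from indoor to high temperature was 5.70-fold, against 1.60-fold over all genes tested. With TMM scaling in the rule 122 genes met it, of which 118 were members.

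**Figure D5:**
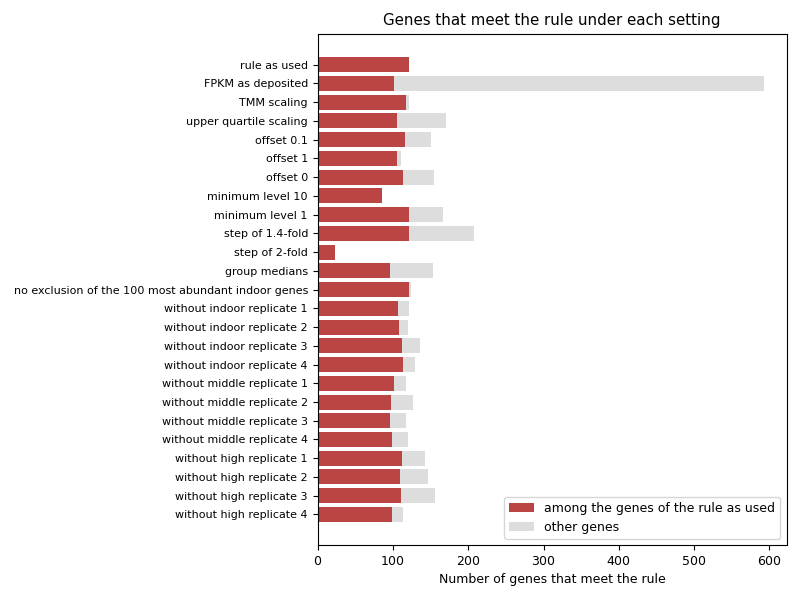
Number of genes that meet the rule (x axis) under each setting; red marks genes that are also among the 122, grey marks others. The bar for FPKM as deposited reaches 593 genes, and the bars that leave out a library run from 113 to 156.

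Transcript length and place in the table were not used by the rule. Length relative to the median of the genes tested, taken from the ratio of the deposited count to the deposited FPKM, had a median of 0.930 in the members, with quartiles of 0.539 and 1.41. Over all genes tested the quartiles were 0.588 and 1.54, so those of the members were slightly lower. Each identifier carries a number from 0 to 32 before the letter G, whose meaning the files do not state. The members carried 31 of the 33 numbers. The number 0 was carried by 19 members, 15.6% against 8.88% of the genes tested, and the number 7 by 9 members, 7.38% against 3.37%. Both were picked as the most frequent numbers and are not tested.

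Some members stood next to each other in the table. There were 6 such pairs under a shared number, holding 12 members. In the pair with indoor levels of 95.6 and 21.7 the total falls were 3.53-fold and 3.54-fold. In the pair with indoor levels of 169 and 65.3 they were 4.63-fold and 4.69-fold. Spipo0G0145400.v2 and its neighbour, at 100.5 and 77.6, fell 3.47-fold and 3.87-fold. The others fell 5.75-fold and 4.69-fold, 4.82-fold and 7.49-fold, and 2.70-fold and 7.70-fold, so neighbours could differ in size as well. Whether neighbouring members are near-identical copies that share reads, or overlap, was not tested.

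Depth limited the lowest values. The members had a median estimated count of 830.5 per library in the indoor group, 449.5 in the middle group and 128 in the high group. A count of 0 was found in 16 values of 11 members, each of which had it in at least 1 high library, and no member was at 0 in all high libraries. The commonest count above 0 in the table was 4, found 1807 times, while a count of 1 was found 470 times. Taking 4 counts as 1 fragment was an assumption and was not tested. On it, a floor of 12 counts per library, or 3 fragments, was set for a count of 0. For those values the floor corresponds to levels of 0.174 to 2.03, within which a low level was not detectable at this depth. It covers counting error only.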

How the data were processed

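Per the labels' protocols, poly(A) RNA was made into strand-marked libraries with unique molecular identifiers and sequenced in read pairs. The submitters' processing notes list, without roles, StringTie 1.3.4d, edgeR, HISAT2 2.0.4, DESeq2, cutadapt 1.9 and UMI-tools. Genome build, annotation and strand setting are not stated in what was used here. Per the file headers, the deposited table holds an FPKM and an estimated count for each library. The deposited counts were whole numbers proportional to FPKM within a gene (within 1% in 100.0% of values of at least 200 counts). Total estimated counts ran from 23655239 to 32711880 per library.

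The scaling and the rule were applied to FPKM with pandas 2.3.3. Genes reaching an FPKM of 1 in 4 or more libraries entered edgeR 4.0.16 in R 4.3.3 (TMM, robust quasi-likelihood F-test, 12 libraries, a term per group), with Benjamini-Hochberg adjustment over 15209 genes. The common biological coefficient of variation was 30.1%. The test was checked on simulated data. Standard errors come from the fold change and F. Alternatives used limma 3.58.1 and DESeq2 1.42.0.

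Replicate libraries were compared pairwise: none were identical, and chi-square over its degrees of freedom was 52.5 to 192. Members, tests and naming rule were chosen with earlier results of these data known. Named are, among members whose libraries overlap between no groups, the 2 with the lowest high to indoor ratio and the 2 with the highest indoor level. Gene lists by product words were not used, since identifiers are not paired with names.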

Additional observations from a re-analysis of the deposited data

Results flagged for a closer look

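In Spipo0G0145400.v2 at middle temperature, replicate 3 had a level of 69.7 against 44.0 to 47.9 in the other libraries, a gap of 0.847 of the group's range, above Dixon's 95% critical value. It was the only one of 24 sets of 4 libraries checked, over the 4 named genes and 4 summaries of the members, to exceed that value, and chance alone exceeds it in about 1 set in 20. Over every member and group, 29 of 366 sets exceeded it.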

How the results depend on the processing

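Of 99 alternative values of counts and shares, 93 stayed within 1.5 times the reported value and 6 did not. The number of genes meeting the rule, 122, became 593 with FPKM as deposited, 208 with a step of 1.4-fold and 23 with a step of 2-fold. Members called lower between high and middle temperature, 56 as reported, numbered 108 with library totals alone, 108 with limma on log2(FPKM + 1) and 110 with a pseudocount of 0.1, beside 62.9%, 64.4% and 64.1% of all genes tested. Library totals change the scaling alone, while the limma settings change tool, input and scaling together. Fits that each lacked a library gave 113 to 156 genes meeting the rule, and 58 to 76, 39 to 64 and 105 to 113 members called lower at the first step, the second step and over both. In these repeats the library left out followed the order in 67.9% to 97.3% of genes, with a median of 88.2%. With the replicate number as a block, 65, 58 and 113 members were called. Correlations of same-numbered libraries' deviations ran from -0.25 to 0.23, over 0.1 in 2 of 12 pairs, and the best match carried the same number in 5 of 24 look-ups, so the numbers were not taken to pair the libraries. Of 252 alternative values of the named genes 242 kept direction and call, and the other 10, all at the second step of Spipo5G0023500.v2, kept direction and lost the call. Beside those given with that gene, this was the fit with only the middle and high groups (log2 fold change -1.34, edgeR Benjamini-Hochberg adjusted p = 0.0511, within a range up to 0.0967). Beyond the setting with library totals, the cause was not tested. Depth limits levels near 0 at high temperature.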
